A study of Mus musculus with 18 samples.

Results

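*Spon1*, *Scel*, *Corin* and *G6pc* are 4 of the 55401 genes in the tables, and they were picked from values measured in these same pools. *Spon1* and *Scel* were picked because they were higher in the medullary than in the cortical thick ascending limb, and *Corin* and *G6pc* because they were lower in the medullary limb of *Cldn10* knock-out mice. How far the genotype effect differed from segment to segment was also used. Values of the contrasts that picked a gene, and segment differences of *Corin* and *G6pc*, which rest on the MTAL pools that picked them, are therefore given as a description with no test. The tests that are given still share pools with the choice, so that none is wholly independent of it.

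The thick ascending limb (TAL) of Henle's loop takes up salt without water. Its medullary part (MTAL) lies in the inner stripe of the outer medulla, an oxygen-poor and hypertonic zone, and its cortical part (CTAL) lies in the cortex. *Cldn10* encodes claudin-10, the tight junction protein that lets sodium pass between the cells of the limb. *G6pc* encodes the catalytic subunit of glucose-6-phosphatase, which releases free glucose in the last step of glucose synthesis and of glycogen breakdown and is best known from liver and proximal tubule. *Corin* encodes a transmembrane serine protease that cuts the precursor of atrial natriuretic peptide into its active form. *Spon1* encodes F-spondin, a secreted protein of the extracellular matrix. *Scel* encodes sciellin, a LIM domain protein known as a precursor of the cornified envelope of stratified epithelia.

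RNA was sequenced from 18 pools of tubules dissected by hand, each of 150 to 200 tubules from a distinct mouse. The mice were adult males aged 4 to 10 months on a mainly, but not wholly, C57BL/6 background. The conditional knock-out (cKO) mice were Cldn10 fl/fl; Ksp-Cre, in which the Ksp-cadherin promoter drives Cre in the distal nephron, and the wild type (WT) mice were Cldn10 fl/fl littermates without Cre, so that all animals carried the floxed alleles. There were 5 pools of WT CTAL, 5 of cKO CTAL, 5 of WT MTAL and 3 of cKO MTAL, the medullary limbs of cKO kidneys being hard to dissect because of calcium deposits. The label of WT CTAL replicate 1 names it both as WT and as knock-out, and it was used as WT.

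The targeted gene and the markers of the limb were checked in all pools. *Cldn10* lay between 384 and 579 CPM (counts scaled to equal library size) in WT CTAL, between 653 and 810 CPM in WT MTAL, between 156 and 185 CPM in cKO CTAL and at 295, 151 and 217 CPM in cKO MTAL, and transcript remained in every cKO pool. The genotypes did not overlap in either segment, but the study had left out a cKO CTAL pool because of its *Cldn10* level, so that this separation was in part set by the selection of pools. WT CTAL replicate 1 had 446 CPM. *Slc12a1*, which encodes the sodium chloride transporter that defines the limb, reached at least 11424 CPM in every pool. Some pools stood apart. *Xist*, a transcript of female cells, exceeded 5 CPM in 7 pools of these male animals (WT CTAL replicates 3 and 22, cKO CTAL replicate 2, and WT MTAL replicates 11, 15, 17 and 19) and was under 0.8 CPM in the other 11. WT CTAL replicate 3 carried 209 CPM of a list of 7 thin limb genes, where the other CTAL pools had 43.1 to 87.2 CPM. Of the 3 cKO MTAL pools, replicate 20 carried 1054 CPM of 8 principal cell genes, where the other 17 pools had at most 358 CPM. Values without these pools, or with a term for those with *Xist*, are given beside the results they change.

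Sequence upstream of the transcription start is shown for 3 of the 4 genes to place them in the genome. A further reason was that *Corin* and *G6pc* had much the same pattern over the pools. Picking both for a fall in cKO MTAL in part set that likeness. The sequences are those of RefSeq on the plus strand for *Scel* and *G6pc* and on the minus strand for *Corin* (build GRCm38.p6), and capitals mark the matches to 5 short motifs searched on both strands. For *G6pc* only the first 95 of the 250 bases before the RefSeq start are shown, because the gene of the annotation begins right after them.
Scel, chr14:103513091-103513340, plus strand: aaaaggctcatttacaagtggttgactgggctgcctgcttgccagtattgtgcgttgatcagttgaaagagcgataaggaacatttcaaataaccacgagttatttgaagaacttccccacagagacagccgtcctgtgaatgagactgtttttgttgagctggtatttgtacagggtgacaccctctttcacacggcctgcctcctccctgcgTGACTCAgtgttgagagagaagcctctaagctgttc
Corin, chr5:72504541-72504790, minus strand: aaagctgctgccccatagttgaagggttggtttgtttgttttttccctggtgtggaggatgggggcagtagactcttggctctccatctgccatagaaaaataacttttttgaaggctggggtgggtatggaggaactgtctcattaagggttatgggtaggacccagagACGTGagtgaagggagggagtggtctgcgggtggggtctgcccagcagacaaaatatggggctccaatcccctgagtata
G6pc, chr11:101367466-101367560, plus strand: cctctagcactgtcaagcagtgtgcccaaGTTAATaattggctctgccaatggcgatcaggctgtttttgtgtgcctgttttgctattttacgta
The *Scel* stretch holds TGACTCA, the AP-1 motif, which is in 4.46% of 32851 promoters of the same 250 bases. The *Corin* stretch holds ACGTG, the core of hypoxia response elements, which is in 16.6% of them. The 95 bases of *G6pc* hold GTTAAT, a short HNF1 motif, which is in 6.43% of promoters. The whole 250-base window of *G6pc* also has 1 match of TATAAA, the TATA box, which is in 12.4% of promoters and lies here downstream of the stretch shown. TGGAAA, the core of tonicity elements, is in 18.6% of promoters and in none of the 3 windows. No motif was found in both *Corin* and *G6pc*. These matches are letters in the sequence and were not tested as binding sites. *Spon1* (chr7:113765998-114043370, plus strand) is named only. In the annotation of GRCm38, *Scel* spans chr14:103513342-103612797, *Corin* chr5:72300025-72504473 and *G6pc* chr11:101367561-101377903, and all 4 genes are protein-coding. *Corin* overlaps 5 annotated snRNA, antisense, lincRNA and pseudogene entries, which had at most 22 counts each over the 18 pools.

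*G6pc* was abundant in WT MTAL and low in the other groups. The 5 pools of WT MTAL had 53.0, 66.4, 93.1, 49.2 and 44.3 CPM. The 3 pools of cKO MTAL had 14.0, 6.81 and 6.45 CPM. In the cortex, WT CTAL pools had 8.17, 16.6, 10.6, 12.5 and 10.1 CPM and cKO CTAL pools had 6.21, 4.64, 5.33, 6.10 and 4.46 CPM. Every WT MTAL pool thus lay far above every other pool, and cKO MTAL pools lay within or below the range of WT CTAL. The means were 61.2 ± 19.6 (SD, n = 5), 9.10 ± 4.28 (n = 3), 11.6 ± 3.18 (n = 5) and 5.35 ± 0.804 CPM (n = 5) in that order, so that cKO MTAL kept 14.9% of the WT MTAL level. This difference picked the gene, with a fitted log2 fold change of -2.75 and a standard error of 0.31, and has no test here. In bulk RNA of this kind, fewer cells that make a transcript and less transcript per cell cannot be told apart.

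In the cortex, *G6pc* also fell in cKO. The comparison of the cortical pools was not the one that picked the gene, although they entered the difference between segments that was also used. The log2 fold change between cKO CTAL and WT CTAL was -1.11 with a standard error of 0.20 (edgeR quasi-likelihood F test, Benjamini-Hochberg adjusted p = 0.0145 over 11702 genes), and cKO CTAL kept 46.1% of the WT CTAL level. *G6pc* was called lower here at a log2 fold change of at most -1, as 0.214% of the tested genes were. The groups did not overlap in CPM, which held for 1.24% of genes in this direction. The exact two-sided Mann-Whitney test gave p = 0.00794, the smallest possible at 5 pools against 5, or 0.0198 after adjustment over 10 tests of the 4 genes. Those 10 include the segment comparisons of *Corin* and *G6pc*, which have no test here. This adjusted exact p and those given below are therefore too low. Without WT CTAL replicate 3, the log2 fold change was -0.95 (adjusted p = 0.0293), under the limit of 1, and without the 3 CTAL pools with *Xist* it was -1.02 (adjusted p = 0.0748), no longer past the threshold.

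The segment difference of *G6pc* was large in WT and small in cKO. WT MTAL was 5.28-fold above WT CTAL, with a log2 fold change of 2.42 and a standard error of 0.22, and in cKO the ratio was 1.70, with a log2 fold change of 0.80 and a standard error of 0.30. Neither value has a test, since the high WT MTAL and low cKO MTAL pools picked the gene. Without cKO MTAL replicate 16, the highest of its group, the log2 fold change in cKO was 0.32. Without the pools with *Xist* only replicate 13 of WT MTAL would remain, so that no comparison with WT MTAL could be made without them, and a term for these pools in 1 fit of all groups gave 2.35 between the WT segments. Without cKO MTAL replicate 20 the log2 fold change between the MTAL genotypes was -2.56.

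*Corin* had the same order of groups at a much lower level. WT MTAL pools had 3.70, 4.95, 6.62, 3.49 and 2.45 CPM and cKO MTAL pools had 0.956, 0.395 and 0.414 CPM. WT CTAL pools had 0.272, 1.51, 0.853, 0.270 and 0.401 CPM and cKO CTAL pools had 0.546, 0.607, 0.304, 0.439 and 0.251 CPM. All WT MTAL pools lay above all others, while the other 3 groups overlapped. The means were 4.24 ± 1.60, 0.588 ± 0.318, 0.660 ± 0.530 and 0.429 ± 0.152 CPM in the same order (SD, n = 5, 3, 5 and 5), and cKO MTAL kept 13.9% of the WT MTAL level. The log2 fold change in MTAL that picked the gene was -2.86 with a standard error of 0.54, or -2.68 without cKO MTAL replicate 20. On log2(TPM + 1), at mean TPM of 1.15 and 0.180, the same difference was -0.84. Outside WT MTAL these levels rest on 5 to 52 counts per pool, so that the group differences there are imprecise.

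*Corin* did not pass the filter on low counts in 3 of the 4 pairwise comparisons, whose values come from a fit of all genes with counts. In the cortex, cKO and WT did not differ beyond their spread, with a log2 fold change of -0.54 (edgeR, adjusted p = 0.735), and the 95% interval of -1.73 to 0.64 reaches from a large decrease to an increase. The exact Mann-Whitney p was 0.841. Without WT CTAL replicate 3, which had 16 counts and the highest level of its group, the log2 fold change was -0.07, and without the CTAL pools with *Xist* it was -0.24. In WT, MTAL was 6.42-fold above CTAL, with a log2 fold change of 2.77 and a standard error of 0.47, and in cKO the ratio was 1.37, with a log2 fold change of 0.39 and a standard error of 0.70. As for *G6pc*, these MTAL pools picked the gene, so that neither value has a test. Without cKO MTAL replicate 16 the log2 fold change in cKO was -0.10.

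**Figure D1:**
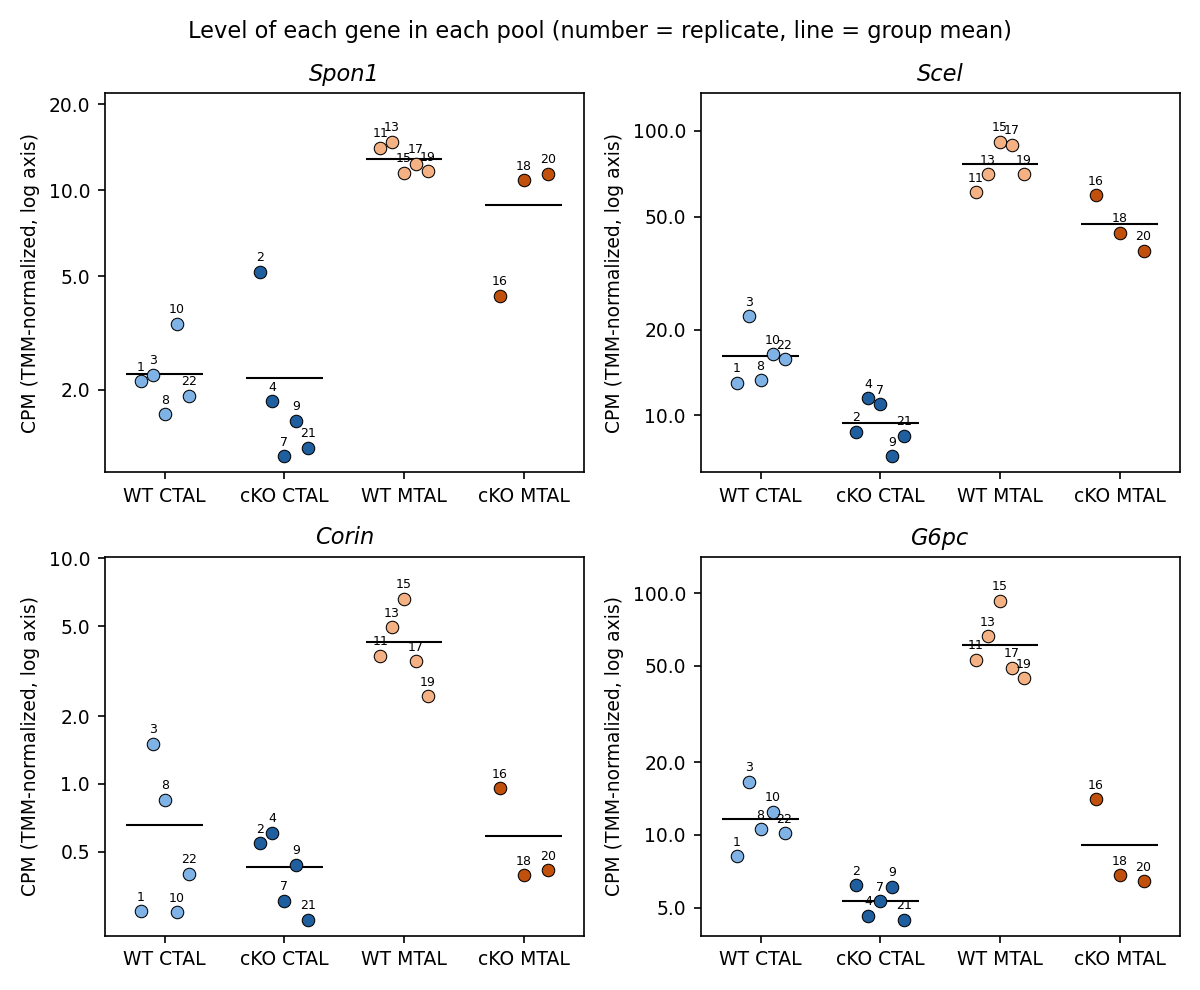
Level of each gene in each of the 18 pools in TMM-normalized CPM on a log axis, by group. Each point is a pool named by its replicate number and each line is the group mean. *Corin* and *G6pc* means were 4.24 and 61.2 CPM in WT MTAL and 0.588 and 9.10 CPM in cKO MTAL, whereas *Spon1* and *Scel* means in cKO MTAL, 8.85 and 47.1 CPM, lay above both CTAL means.

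*Spon1* was a low transcript whose mean was higher in MTAL than in CTAL in both genotypes. WT MTAL pools had 14.1, 14.8, 11.5, 12.4 and 11.7 CPM and cKO MTAL pools had 4.26, 10.9 and 11.4 CPM. WT CTAL pools had 2.14, 2.26, 1.64, 3.41 and 1.90 CPM and cKO CTAL pools had 5.18, 1.82, 1.17, 1.56 and 1.25 CPM. In cKO MTAL, replicates 18 and 20 lay just under the lowest WT MTAL pool and replicate 16 lay below cKO CTAL replicate 2. The means were 12.9 ± 1.48, 8.85 ± 3.98, 2.27 ± 0.679 and 2.20 ± 1.69 CPM (SD, n = 5, 3, 5 and 5) for WT MTAL, cKO MTAL, WT CTAL and cKO CTAL. The segment difference, which picked the gene, was 5.68-fold in WT with a log2 fold change of 2.51 (standard error 0.24), and 4.03-fold in cKO with a log2 fold change of 2.03 (standard error 0.51).

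The genotypes did not pass the threshold for *Spon1* in either segment. In MTAL the log2 fold change was -0.53 with a standard error of 0.32 (edgeR, adjusted p = 0.335, 95% interval -1.20 to 0.14), so that a fall of more than 1 on the log2 scale is within the interval. The groups did not overlap in TMM-normalized CPM, as was so for 7.65% of genes in this direction, and the exact Mann-Whitney p was 0.0357, the smallest possible (0.051 adjusted). On CPM from total counts the groups overlapped and the exact p was 0.25. Without cKO MTAL replicate 16 the log2 fold change was -0.20, with a term for the pools with *Xist* it was also -0.20, and without cKO MTAL replicate 20 it was -0.75. The WT MTAL pools in this comparison are also among those that picked *Spon1*. In CTAL *Spon1* was under the filter on low counts, and the fit of all genes gave a log2 fold change of -0.02 with a 95% interval of -0.86 to 0.82 (edgeR, adjusted p = 0.996). The exact Mann-Whitney p in CTAL was 0.222. Without the CTAL pools with *Xist* the CTAL value was -0.71.

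*Scel* was higher in MTAL than in CTAL in both genotypes and lower in cKO than in WT in both segments. WT MTAL pools had 60.8, 70.5, 91.6, 89.3 and 70.3 CPM and cKO MTAL pools had 59.6, 43.8 and 37.9 CPM. WT CTAL pools had 13.04, 22.3, 13.3, 16.4 and 15.7 CPM and cKO CTAL pools had 8.75, 11.5, 10.96, 7.17 and 8.47 CPM. On TMM-normalized CPM the 4 groups did not overlap with each other in any pair, and their order was WT MTAL, cKO MTAL, WT CTAL and cKO CTAL. Such separation was found for 1.24% of genes tested in CTAL and 7.65% in MTAL (lower in cKO), and for 3.06% in WT and 4.15% in cKO (higher in MTAL). On TPM the genotypes of *Scel* overlapped in both segments, and on CPM from total counts they overlapped in MTAL. The means were 76.5 ± 13.3, 47.1 ± 11.2, 16.1 ± 3.75 and 9.37 ± 1.81 CPM in that order (SD, n = 5, 3, 5 and 5). The segment ratio that picked the gene was 4.74 in WT and 5.03 in cKO, with log2 fold changes of 2.26 (standard error 0.16) and 2.37 (standard error 0.19).

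*Scel* had an adjusted p under 0.05 between genotypes in both segments, by a change smaller than the log2 limit of 1 used for calls. In CTAL the log2 fold change was -0.79 with a standard error of 0.18 (edgeR, adjusted p = 0.0472), where 0.564% of genes were lower at that adjusted p, and cKO kept 58.0% of the WT level. The exact Mann-Whitney p was 0.00794 (0.0198 adjusted). In MTAL the log2 fold change was -0.69 with a standard error of 0.18 (edgeR, adjusted p = 0.0279), where 2.57% of genes were lower at that adjusted p, and cKO kept 61.5% of the WT level. The exact Mann-Whitney p there was 0.0357, the smallest possible (0.051 adjusted). The WT pools of both comparisons also picked *Scel*, and both adjusted p-values were close to the threshold. Leaving out any of WT CTAL replicates 3, 10 and 22 or cKO CTAL replicates 2, 7, 9 and 21 moved the CTAL value past it (adjusted p up to 0.122), and leaving out WT MTAL replicate 15 or 17 or cKO MTAL replicate 18 or 20 moved the MTAL value past it (up to 0.110). Without WT CTAL replicate 3 the CTAL value was -0.65 (adjusted p = 0.109), without the CTAL pools with *Xist* it was -0.59 (adjusted p = 0.356), and with a term for the pools with *Xist* the MTAL value was -0.54 (adjusted p = 0.130).

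**Figure D2:**
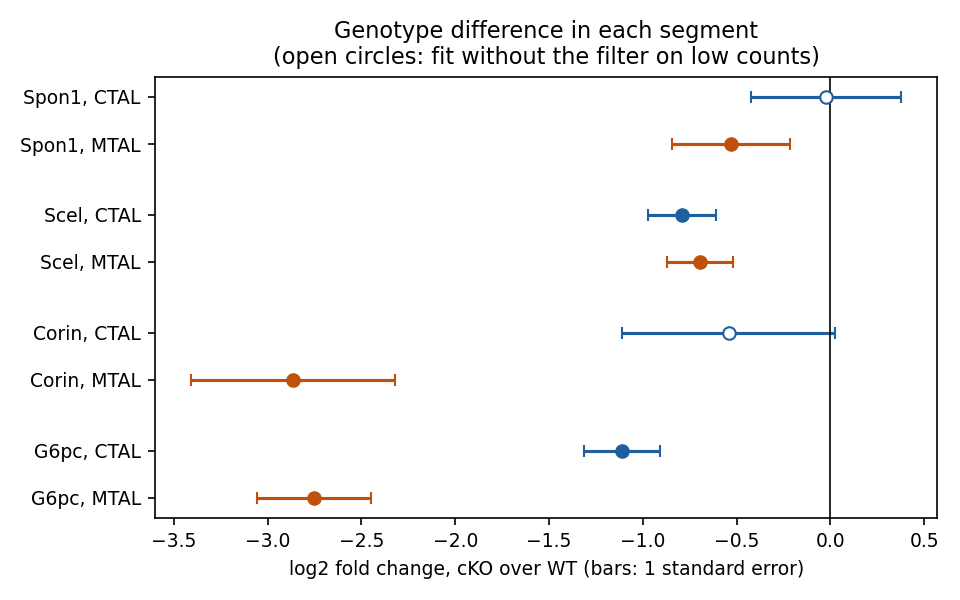
Log2 fold change between cKO and WT in CTAL (blue) and MTAL (orange) for each gene, with bars of 1 standard error. Open circles are values from the fit without the filter on low counts. *Corin* and *G6pc* lie at -2.86 and -2.75 in MTAL, where that difference picked them, and *Scel* lies at -0.79 and -0.69 in CTAL and MTAL.

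The genotype effect in MTAL minus that in CTAL put the 4 genes side by side. This difference was -1.67 on the log2 scale for *G6pc*, -2.37 for *Corin*, -0.52 for *Spon1* and 0.08 for *Scel*. Since the choice of the genes used these values, they have no test. With each pool left out in turn, *Spon1* ranged from -0.73 to 0.10, turning sign without cKO CTAL replicate 2, and was -0.20 without cKO MTAL replicate 16. *Scel* ranged from -0.12 to 0.23, and its sign turned without WT CTAL replicate 3 (-0.05) and without cKO MTAL replicate 16 (-0.12). *G6pc* ranged from -2.11 to -1.45 and *Corin* from -2.88 to -2.14. The share of the WT level left in cKO MTAL was 14.9% for *G6pc* and 13.9% for *Corin*, but 68.7% for *Spon1* and 61.5% for *Scel*, while in CTAL it was 46.1%, 65.0%, 96.7% and 58.0%. Per transcript length, the deposited TPM in WT MTAL ranked the genes as *Scel* (40.3), *G6pc* (32.2), *Spon1* (2.56) and *Corin* (1.15), and in cKO MTAL as *Scel* (28.9), *G6pc* (5.37), *Spon1* (2.03) and *Corin* (0.180).

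Among all genes, 76 (0.652% of those tested) were called higher in WT MTAL than in WT CTAL, and in that order of log2 fold change *Spon1* was the first, *G6pc* the fourth and *Scel* the seventh. *Corin* was not tested there. Of these 76 genes, 62 were also tested between the cKO segments, which share no pool with the WT segments, and 23 were called higher in cKO MTAL, against 0.623% of all genes tested in cKO. To be tested there, a gene had to reach 3 CPM in 3 or more cKO pools. Genes lost from cKO MTAL and low in cKO CTAL could thus drop out, and others could pass through cKO MTAL alone. The counts of genes kept in cKO depend on this filter. Calls between the cKO segments rest on 3 MTAL pools, and without cKO MTAL replicate 18 there were 527 in both directions in place of 113. The log2 fold change in cKO was above 0 for 58 of the 62 genes and at least 1 for 31. The median over the 62 genes was 1.33 in WT and 0.96 in cKO, beside medians of all genes of 0.02 and 0.03. Since the 62 genes were called on their WT value, a lower median in cKO can arise from that choice alone. In cKO, *Scel* held rank 5, *Spon1* rank 9 and *G6pc* rank 36 among the 62. The ranks in WT and in cKO follow in part from the rule that picked these genes and are a description.

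**Figure D3:**
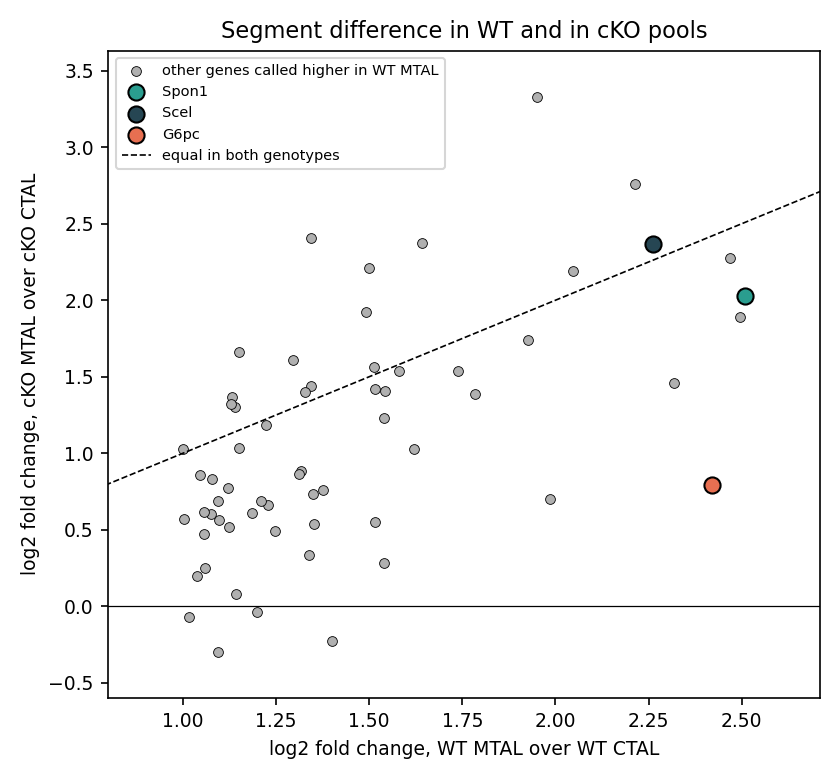
Log2 fold change between MTAL and CTAL in cKO (vertical axis) against that in WT (horizontal axis) for the 62 genes called higher in WT MTAL and tested in both. The dashed line marks equal values. *Scel* (2.26 in WT, 2.37 in cKO) lies on the line, *Spon1* (2.51 and 2.03) a little under it and *G6pc* (2.42 and 0.80) far below it.

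The genes whose pattern over the 18 pools was most like each member were listed by Pearson's r of log2(CPM + 1) over 11828 genes or, for *Corin*, 11829. The pools share segment and genotype, so that r mostly follows the 4 group means. For *G6pc* these were *Sult1c2* (r = 0.97), which encodes a sulfotransferase, *Mpp5* (0.95), which encodes a polarity protein of tight junctions, and *Usp54* (0.95). *Sult1c2* had 88.5 ± 12.4 CPM in WT MTAL and 35.7 ± 10.4, 34.8 ± 8.90 and 25.2 ± 0.774 CPM in cKO MTAL, WT CTAL and cKO CTAL. For *Corin* they were *G6pc* (0.96), *Sult1c2* (0.91) and *Mapk8ip2* (0.91), which encodes a scaffold of JNK signalling. For *Scel* they were *Epcam* (0.97), which encodes an epithelial adhesion molecule, *Tns3* (0.96), which encodes a tensin of focal adhesions, and *Litaf* (0.95). *Epcam* had 622 ± 34.2 CPM in WT MTAL, 486 ± 48.4 in cKO MTAL, 400 ± 36.1 in WT CTAL and 351 ± 8.84 in cKO CTAL. For *Spon1* they were *Slc7a5* (0.94), which encodes the large neutral amino acid transporter LAT1, *Car2* (0.93), which encodes carbonic anhydrase, and *Septin4* (0.92). *Slc7a5* had 28.8 ± 4.09 CPM in WT MTAL and 24.8 ± 2.82 in cKO MTAL, against 12.3 ± 0.463 and 11.2 ± 1.72 CPM in WT CTAL and cKO CTAL. Among the members, r was 0.96 for *Corin* with *G6pc* and 0.87 for *Spon1* with *Scel*, and between 0.70 and 0.83 for the other 4 pairs. *Corin* and *G6pc* were picked by the same rule, as were *Spon1* and *Scel*, which by itself favours a high r within those pairs.

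Of 27 other genes of glucose synthesis and of the glucose-6-phosphatase system, 20 were tested in each comparison. The list median in cKO MTAL over WT MTAL was 0.16 beside 0.00 for all genes tested. *G6pc3*, the widely expressed relative of *G6pc*, had 43.1 ± 9.73 CPM in WT MTAL and 55.1 ± 15.2 CPM in cKO MTAL. *Slc37a4*, the transporter that carries glucose-6-phosphate to the enzyme, had 11.5 ± 1.35 and 8.83 ± 4.01 CPM. *Pck1*, the first committed step of glucose synthesis, had 4.74 ± 1.72 and 12.6 ± 7.44 CPM. The most abundant members were *Gpi1*, a glycolytic isomerase, with 610 ± 9.95 CPM in WT MTAL and 672 ± 85.5 CPM in cKO MTAL, and *Hk1*, hexokinase, with 942 ± 57.0 and 957 ± 68.0 CPM.

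Of 16 genes of natriuretic peptide processing and signalling, 9 or 10 were tested and 1 was called. *Pde2a*, a phosphodiesterase that breaks down cyclic nucleotides, fell in cKO MTAL by 2.28 on the log2 scale with a standard error of 0.66 (edgeR, adjusted p = 0.0491), where 1.04% of all genes were called lower. It had 19.9 ± 10.1 CPM in WT MTAL and 4.0 ± 3.47 CPM in cKO MTAL, so that its pools varied widely. *Pcsk6*, the proprotein convertase that activates corin, was lower in cKO MTAL by a log2 fold change of -0.55 (edgeR, adjusted p = 0.00975), under the limit of 1, and had 666 ± 63.1 CPM in WT MTAL, 453 ± 37.4 in cKO MTAL, 408 ± 76.9 in WT CTAL and 297 ± 27.7 in cKO CTAL. Its MTAL level was higher than its CTAL level in WT, by 0.71 (edgeR, adjusted p = 0.00102), and in cKO, by 0.64 (edgeR, adjusted p = 0.00721). *Hpn*, which encodes the related protease hepsin, had 225 ± 23.1 CPM in WT MTAL and 251 ± 32.8 in cKO MTAL. The list median in cKO MTAL over WT MTAL was 0.03.

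Of 16 relatives and partners of F-spondin, 7 or 8 were tested and 1 was called, *Thbs2*, a matrix thrombospondin, which rose in cKO MTAL by 1.67 with a standard error of 0.46 (edgeR, adjusted p = 0.0381), where 2.69% of all genes were called higher, from 6.99 ± 5.89 to 22.5 ± 9.12 CPM. *App* and *Aplp2*, which encode the amyloid precursor protein that F-spondin binds and its relative, were the most abundant, with 1771 ± 72.7 and 618 ± 26.2 CPM in WT MTAL and 1948 ± 49.5 and 736 ± 24.6 CPM in cKO MTAL. Of 17 genes of the cornified envelope and LIM relatives of sciellin, 9 to 11 were tested. Both called genes rose in cKO MTAL, *Evpl*, which encodes envoplakin, by 1.05 (edgeR, adjusted p = 0.0139) and *Sprr1a*, which encodes a small proline-rich envelope protein, by 3.65 (edgeR, adjusted p = 0.00655). *Scel* itself was lower there. *Sprr1a* had 0.881 ± 0.805 CPM in WT MTAL and 11.7 ± 12.2 CPM in cKO MTAL. *S100a10* and *S100a11*, the most abundant members by TPM, had 53.6 ± 5.67 and 74.0 ± 10.9 CPM in WT MTAL and 90.1 ± 25.5 and 114 ± 52.7 CPM in cKO MTAL. In CPM, *Dsp* and *Lmo7* were higher, with 251 ± 32.6 and 255 ± 16.3 in WT MTAL and 203 ± 40.1 and 208 ± 17.5 in cKO MTAL. The medians of the F-spondin and sciellin lists in cKO MTAL over WT MTAL were 0.37 and 0.64 beside 0.00 for all genes. In the other 3 pairwise comparisons, at most 3 genes of a list had an adjusted p under 0.05 (edgeR), each by less than the limit of 1.

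Markers of other cells moved with the groups. The summed level of 14 proximal tubule genes, which is where *G6pc* is best known in kidney, was 97.8 to 190 CPM in WT MTAL, 180 to 535 in cKO MTAL, 125 to 322 in WT CTAL and 116 to 474 in cKO CTAL, with 10 of the 14 at a mean of at least 1 CPM in every group. The WT MTAL pools had the lowest median of this sum, 149 CPM, and overlapped with the pools of every other group. *Slc2a2*, the glucose transporter of the proximal tubule, had at most 0.889 CPM in the 18 pools, while *Kap* and *Slc27a2* of the same list reached 294 and 107 CPM. The thin limb list was 182 to 291 CPM in WT MTAL and 162 to 198 in cKO MTAL, against 43.1 to 87.2 in CTAL without WT CTAL replicate 3, with 5 or 6 of 7 genes at a mean of at least 1 CPM. The list thus followed the segment in both genotypes. Its members differed between genotypes in MTAL. *Slc14a2*, the urea transporter gene of thin limbs and collecting ducts, had 46.1 CPM in WT MTAL and 12.3 CPM in cKO MTAL on average. *Aqp1* had 109 and 76.5 CPM and *Cryab* 75.0 and 74.3 CPM. *Bst1*, *Epha7*, *Sptssb* and *Cldn4* had higher means in cKO MTAL, of at most 10.7 CPM. WT CTAL replicate 3 was the highest WT CTAL pool for *Scel*, *Corin* and *G6pc*. The 8 urothelial genes summed to 21.1 to 41.1 CPM in cKO MTAL and to 6.11 to 12.1 CPM elsewhere, with 1 to 3 genes at a mean of at least 1 CPM. *Psca* carried most of that sum, with a mean of 21.1 CPM in cKO MTAL and 0.994 CPM in WT MTAL, while the uroplakin gene *Upk1a* had 3.62 and 5.32 CPM. All members but *Upk1a* had a higher mean in cKO MTAL than in WT MTAL. *Trp63* had 1.96 and 0.690 CPM, and *Krt5*, *Krt20*, *Upk1b*, *Upk2* and *Upk3a* had means under 1 CPM. The 7 genes of tubular injury reached 2335 to 9227 CPM in cKO MTAL against 1173 to 1438 in WT MTAL, and 1899 to 4979 CPM in cKO CTAL against 1514 to 1786 in WT CTAL, with 6 or 7 genes at that mean. The genotypes thus did not overlap in either segment for this list. *Spp1* carried most of that sum, with means of 3949 CPM in cKO MTAL and 1100 in WT MTAL, and 2494 and 1468 in cKO CTAL and WT CTAL. *Vcam1* was lower in cKO, with 4.74 against 6.99 CPM in MTAL and 4.09 against 5.26 in CTAL. The other members had higher means in cKO in both segments. The 7 endothelial genes summed to 160 to 267 CPM in cKO MTAL and 273 to 426 CPM in WT MTAL, without overlap, and to 194 to 287 CPM in cKO CTAL and 238 to 499 CPM in WT CTAL, all 7 at a mean of at least 1 CPM in every group. The part of these cells and of injury in the levels of the 4 genes was not tested.

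**Figure D4:**
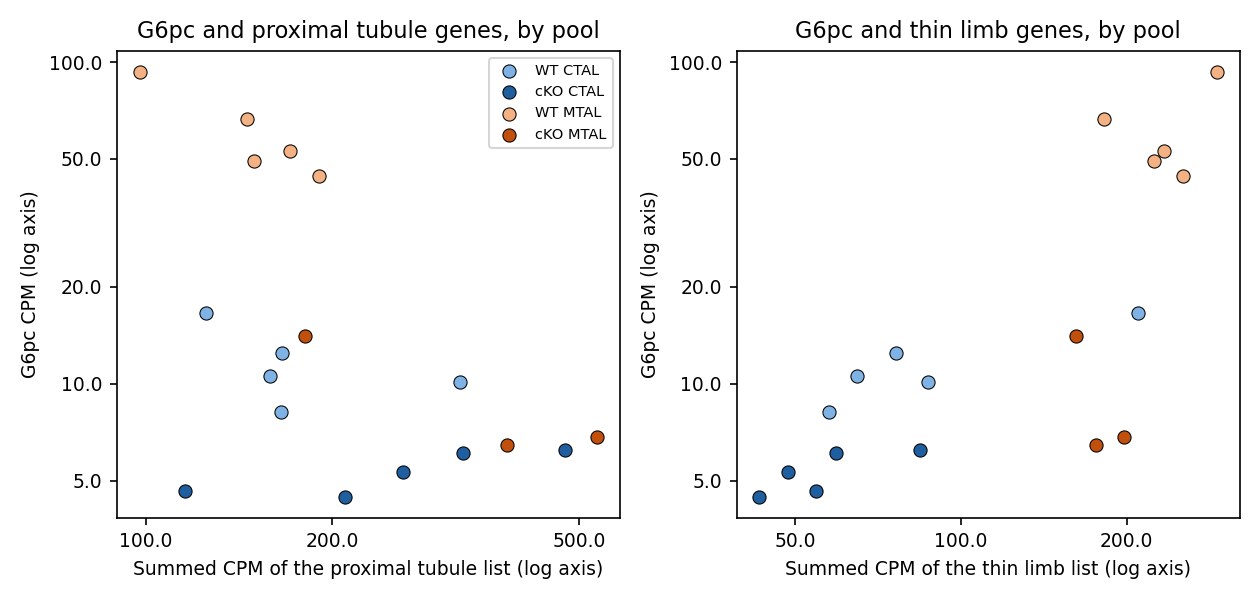
*G6pc* in CPM against the summed CPM of the proximal tubule list (left) and of the thin limb list (right), both on log axes, with 1 point for each of the 18 pools. The WT MTAL pools have 44.3 to 93.1 CPM of *G6pc* at 97.8 to 190 CPM of proximal tubule genes, and the cKO MTAL pools have 6.45 to 14.0 CPM at 162 to 198 CPM of thin limb genes.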

How the data were processed

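Per the labels and the methods of the study, poly-A RNA was sequenced after strand-specific library preparation, and the authors mapped the reads with DRAGEN (version 3.10.11) to mm10 with gencode (version 25). The methods name fastp for trimming and the submitters' processing notes name Trimmomatic. The authors deposited estimated counts per gene, which are not normalized, and TPM, which are scaled for transcript length and total. Whether strand was used in counting and how reads of several genes were treated is not given in the sources used here. The study excluded 2 pools of cKO MTAL and 1 of cKO CTAL, not analysed here. Total counts ranged from 10824299 to 62339939 per pool.

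Estimated counts were rounded, where the plan had assumed whole counts. Each pair of groups was fitted with edgeR (version 4.0.16, R version 4.3.3), with TMM factors and the quasi-likelihood F test, over genes that reached 3 CPM in 5 or more pools (3 or more where cKO MTAL entered). Of the 4 genes, 3 passed between the WT segments, 2 between genotypes in CTAL, 4 in MTAL and 3 between the cKO segments, and a gene can pass through the group where it is high. A gene was called when its p, adjusted after Benjamini and Hochberg, was under 0.05 and its log2 fold change reached 1 in either direction, and the standard error is the log2 fold change divided by the root of F. The interaction was fitted on all 18 pools. Levels are CPM on TMM-normalized library sizes, and exact Mann-Whitney tests are two-sided. A t approximation gave the 95% intervals. The genes were chosen, and the gene and marker lists written, with earlier results of these data known. The genes named besides the 4 are the 3 most correlated genes of each, the called genes and the 2 most abundant genes by TPM of each list, and *Cldn10*. A result of the glucose list is not reported here. *G6pc3*, *Slc37a4*, *Pck1*, the markers and *Xist* were named after their values were seen. Promoters and motifs come from the RefSeq table of GRCm38.p6 and gene positions from the GENCODE annotation of GRCm38, which held 99.5% of the identifiers. The scripts were tested on simulated data with known changes. Alternatives were other tests (edgeR's likelihood ratio test, DESeq2 version 1.42.0, limma version 3.58.1 on log2(TPM + 1)), other scalings, no filter, 1 fit of all pools, leaving out each pool or those with *Xist*, and WT CTAL replicate 1 as cKO.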

Additional observations from a re-analysis of the deposited data

Results flagged for a closer look

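*Spon1* in cKO CTAL replicate 2, at 5.18 CPM, lay far from the other 4 pools of its group, whose values were 1.17 to 1.82 CPM. The gap to the nearest pool was 0.837 of the group's range, above the critical value of 0.71 for 5 samples. It was the only such value among 12 groups examined. Chance gives about 1 in 20 for each single group, so that 1 among 12 is not unusual. This pool is also the cKO CTAL pool with *Xist*, at 8.39 CPM. Without it the log2 fold change of *Spon1* between cKO CTAL and WT CTAL was -0.64 in place of -0.02.

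The genotype effect of *G6pc* in MTAL minus that in CTAL was -1.67 on the log2 scale, a difference between the segments, with cKO at 14.9% of WT in MTAL and at 46.1% in CTAL. The difference in MTAL picked the gene, so that this difference is a description.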

How the results depend on the processing

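No paired analysis was possible because the groups share no replicate numbers. For *G6pc* in CTAL 18 of 20 alternatives kept the sign and an adjusted p under 0.05, and limma on TPM gave -0.80 and leaving out the pools with *Xist* -1.02. *Scel* in CTAL kept its sign in all 20 and that adjusted p in 8, with -0.74 without TMM factors, -0.78 without the filter, -0.58 by limma, -0.59 without the pools with *Xist*, -0.77 with WT CTAL replicate 1 as cKO, and -0.88 to -0.65 with each pool left out. *Scel* in MTAL kept its sign in all 16 and that adjusted p in 10, with -0.46 by limma, -0.54 with a term for *Xist*, and -0.90 to -0.56 with each pool left out. The exact p of *Scel* in MTAL was 0.0714 on total-count CPM and on TPM, and that of *Spon1* 0.25 and 0.786. Among values without a call, signs turned for 4. *Spon1* in CTAL was 0.043 on TPM and -0.64 to 0.18 with each pool left out, *Corin* between cKO segments -0.10 to 0.60, and the differences of the genotype effect between segments -0.73 to 0.10 for *Spon1* and -0.12 to 0.23 for *Scel*. By limma on log2(TPM + 1), *Corin* in MTAL was -0.84, and *Spon1* was 1.27 between WT segments and 0.99 between cKO segments. On log2(TPM + 1) the median of all genes was 0.13 in CTAL and 0.19 in MTAL. The cause of these changes was not tested.

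Counts of called genes moved more. For cKO CTAL against WT CTAL, 55 genes became 25 without the pools with *Xist* and 37 to 69 with each pool left out. For cKO MTAL against WT MTAL, 451 became 692 by the likelihood ratio test of edgeR, 869 without the filter, 807 in 1 fit of all pools, 224 by limma and 279 to 644 with each pool left out (288, 300 and 279 without WT MTAL replicates 15 and 17 and cKO MTAL replicate 20). For cKO MTAL against cKO CTAL, 113 became 404 by that likelihood ratio test, 388 by DESeq2, 344 without the filter, 354 in 1 fit of all pools, 359 with a term for *Xist*, 63 by limma and 70 to 527 with each pool left out, the highest without cKO MTAL replicate 18 and the lowest without cKO CTAL replicate 9. The interaction gave 29, 251 by the likelihood ratio test, 69 without the filter and 13 to 421 with each pool left out, the highest again without that replicate. The WT segments gave 270, and 223 to 288 with each pool left out.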
